A study of Mus musculus with 12 samples.

Results

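The 40 genes described here encode the machinery of mitosis: the kinases and cyclins that start it, the spindle and its checkpoint, the kinetochores, the chromosomal passenger complex, and the motors and scaffolds of cytokinesis. They were taken as a list of named genes, with no measured value in the rule, but with earlier results of these data known. Of the 40, 40 were found among the 55414 genes of the count table. They were followed in the inferior vena cava (IVC), the vein that becomes the outflow of an aortocaval arteriovenous fistula (AVF), on postoperative day 7. The AVF group had 3 male (samples #04, #05 and #06) and 3 female (samples #07, #09 and #11) mice in which a needle was passed from the infrarenal aorta into the IVC. The sham group had 3 male (samples #16, #17 and #18) and 3 female (samples #19, #22 and #23) mice that went through the same operation without the puncture. All 12 mice were wild-type C57BL/6 animals aged 10 wk, all operated under isoflurane with buprenorphine, and each gave 1 poly-A RNA library. The question was how the wall of the vein differs in gene expression once it carries arterial flow.

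In a dividing cell, CDK1 bound to cyclin B drives entry into mitosis, microtubules grow from the poles and attach to chromosomes at the kinetochores, and the spindle checkpoint holds the anaphase-promoting complex (APC/C) back until every chromosome is attached. APC/C then triggers separation of the sister chromatids, and the central spindle and a contractile ring divide the cell. Most of these genes are transcribed mainly in G2 and M phase, so that their messages are scarce in resting tissue, and proliferation of cells of the vein wall is a known part of venous remodeling. Levels below are CPM (counts divided by library size, with the library size scaled by the trimmed mean of M values), differences are log2 fold changes of AVF over sham with a standard error (SE), and a differentially expressed gene (DEG) has an adjusted p value below 0.05 and a change of at least 2-fold.

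Libraries held 15177881 to 22717423 counts, and 2.39% to 46% of them fell on ribosomal RNA genes, with the highest share in sample #07, whose other genes were therefore covered by 8196603 counts. A count of 3, taken as the limit of detection, was worth 0.127 to 0.323 CPM, and the lowest count of any member in any library was 6, for Plk1. Endothelial and smooth muscle markers were detected in all 12 libraries. Summed hepatocyte markers reached 2415 CPM in sample #05 and 6771 CPM in sample #09, against 0.477 to 4.12 CPM in the other 10 libraries. These are the samples that the study set apart from its 4 other AVF samples on the basis of their expression, so the counts of DEG are also given without them where they differ.

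Mitotic transcripts were higher in the fistula vein across the whole list. Of the 40 members, 40 passed the filter on low counts, 38 were DEG with higher expression in AVF, and 0 were DEG with lower expression. Among all 15912 genes tested, 3.37% were higher DEG and 1.4% were lower DEG. The median log2 fold change of the members was 1.79, with a range of 0.87 to 2.31, beside a median of -0.01 for all genes tested. Without a fold threshold, 40 of 40 members had an adjusted p value under 0.05 with higher levels in AVF, against 8.63% of all genes. Every AVF sample lay above every sham sample for 39 of the 40, a pattern found for 4.55% of all genes. The exception was Kif22, a chromosome-arm motor, for which sample #04 (2.34 CPM) lay below sample #16 of the sham group (2.65 CPM). In bulk tissue, more dividing cells and more message per dividing cell cannot be told apart.

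With samples #05 and #09 left out, 38 of 40 members were again higher DEG, beside 2.32% of the 15531 genes tested there, and their median log2 fold change was 1.85. The macrophage markers also moved with the operation: their sum was 661 to 1197 CPM in AVF and 399 to 652 CPM in sham, with 0 of 7 called at 2-fold and 5 of 7 at an adjusted p value under 0.05. The sum of the fibroblast markers was 17317 to 28995 CPM in AVF and 8447 to 16766 CPM in sham, with 3 of 7 markers called higher, Lum, Col1a1 and Col1a2. The collagen genes Col1a1 and Col1a2 were the largest terms of this sum in AVF. Pdgfra and Dcn changed by 0.04 and 0.12 (log2, adjusted p = 0.90 and 0.67). Dpt and Pi16 changed by 0.34 and 0.89 (log2, adjusted p = 0.0388 and 0.00758), under the 2-fold threshold. The sums of the endothelial and smooth muscle markers overlapped between the groups, with 0 of 8 and 0 of 7 called. Brown adipocyte markers summed to 44.6 to 301 CPM in AVF and 101 to 1703 CPM in sham, with 2 of 5 called lower. Striated muscle markers summed to 561 CPM in sham sample #19 and 807 CPM in sham sample #23, against 7.29 to 43.8 CPM in the other 10 libraries, with 1 of 4 tested markers called lower. The part of these cell types in the mitotic result was not tested.

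**Figure D1:**
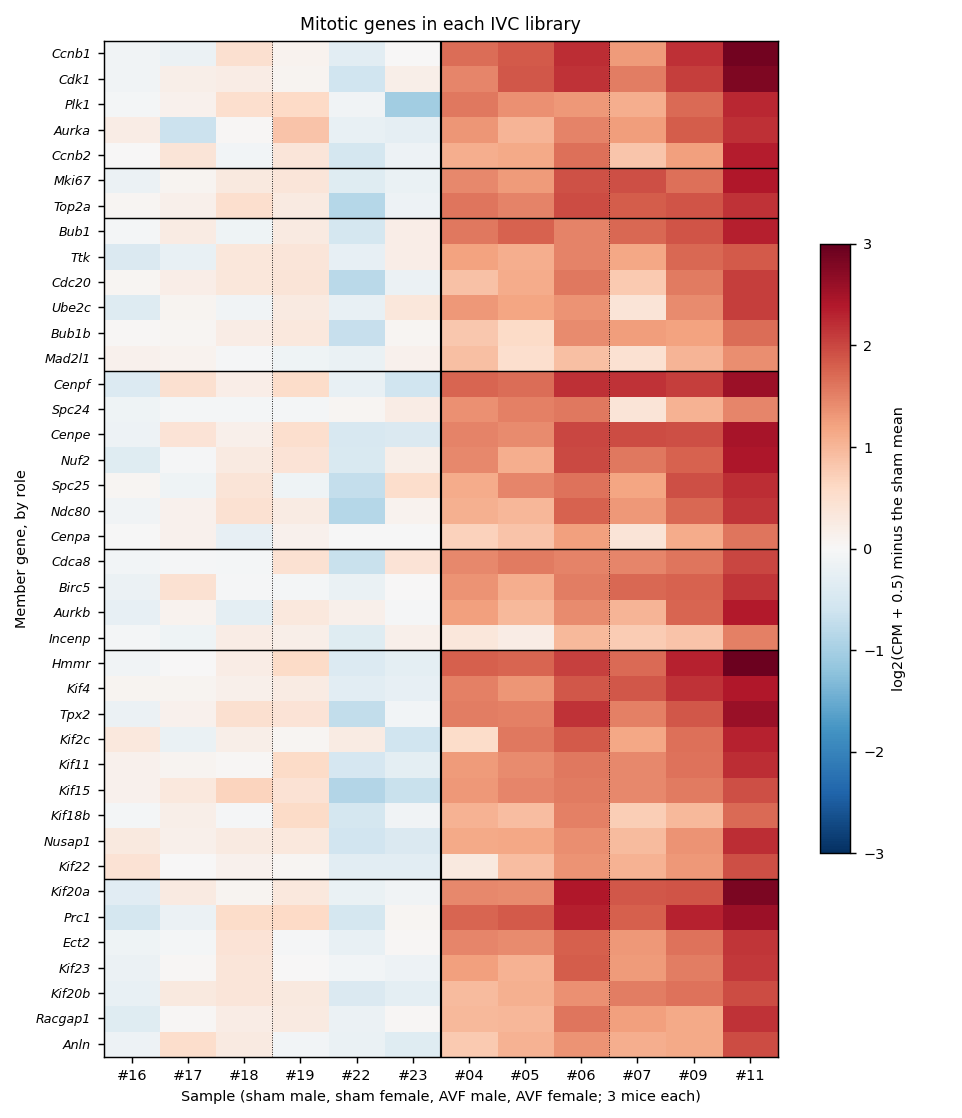
Level of each of the 40 members (rows, ordered by role and then by fold change) in each of the 12 libraries (columns), as log2(CPM + 0.5) minus the mean of the 6 sham libraries, with red for higher and blue for lower. The AVF columns are red throughout and the rightmost, sample #11, is the darkest in 39 of 40 rows, while sample #22 is the lowest sham sample in 26.

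Genes that rise together in G2 and M phase are known to share promoter elements: the cell cycle genes homology region (CHR), bound by the DREAM and B-MYB-MuvB complexes, often lies near CCAAT boxes, bound by NF-Y. The promoters of the members are shown here because the list moved together. RefSeq promoters (build GRCm38.p6, 250 bases before to 50 bases after the start) were present for 35 members, 2 of which, Ect2 and Prc1, had 2 starts, giving 37 promoters. Tpx2, Kif20a, Spc24, Aurkb and Incenp had no entry. The letters TTTGAA or TTCGAA, on either strand, occurred in 31 of 37 member promoters (83.8%), and in 19.2% of all 32851 promoters of that table. CCAAT, on either strand, occurred in 28 of 37 (75.7%), against 37.4% of all. Both occurred in 26 of 37 (70.3%), against 7.52% of all. Base composition was not matched between the members and the rest.

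The share with a hexamer depended on the window. When only the 250 bases before the start were read, the hexamer was in 14 of 37 member promoters (37.8%) against 17.1% of all, and both motifs were in 12 (32.4%) against 6.02%, while the share with CCAAT stayed at 75.7%. Neither motif was found for Birc5, Mad2l1, Nuf2 and Nusap1. Birc5, Nuf2 and Nusap1 were higher DEG at log2 fold changes of 1.85, 1.90 and 1.46, and Mad2l1 had the next to smallest change of the list.

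The 6 promoters below belong to the members with the lowest adjusted p values among those that hold both motifs. Each run is the 250 bases before the RefSeq start, 5′ to 3′ on the strand of the gene, placed on GRCm39 by an exact match. The GENCODE M39 gene models used for the positions further below begin upstream of these RefSeq starts. The Kif4 run lies wholly inside its GENCODE gene, which begins at chrX:99669343, and the other runs overlap theirs in part. Before and after the start therefore refer to the RefSeq start only. Capitals mark both hexamers and the pentamer, on either strand.
Ect2, chr3:27208028-27208277, minus strand: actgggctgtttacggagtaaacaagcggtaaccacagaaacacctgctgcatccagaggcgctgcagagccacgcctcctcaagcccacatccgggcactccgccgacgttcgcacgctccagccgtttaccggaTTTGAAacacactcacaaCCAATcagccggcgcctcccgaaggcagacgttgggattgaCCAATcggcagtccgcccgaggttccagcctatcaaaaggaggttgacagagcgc
Kif4, chrX:99669421-99669670, plus strand: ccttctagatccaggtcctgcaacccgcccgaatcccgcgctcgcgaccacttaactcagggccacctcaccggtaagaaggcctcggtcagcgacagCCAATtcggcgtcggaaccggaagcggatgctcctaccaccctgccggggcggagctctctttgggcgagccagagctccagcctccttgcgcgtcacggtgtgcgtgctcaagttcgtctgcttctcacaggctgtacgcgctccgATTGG
Bub1, chr2:127673780-127674029, minus strand: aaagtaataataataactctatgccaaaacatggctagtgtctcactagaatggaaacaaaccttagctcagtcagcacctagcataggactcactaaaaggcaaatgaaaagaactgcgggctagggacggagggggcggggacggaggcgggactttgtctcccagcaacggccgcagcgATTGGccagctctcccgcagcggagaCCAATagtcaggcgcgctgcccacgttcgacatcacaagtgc
Mki67, chr7:135318109-135318358, minus strand: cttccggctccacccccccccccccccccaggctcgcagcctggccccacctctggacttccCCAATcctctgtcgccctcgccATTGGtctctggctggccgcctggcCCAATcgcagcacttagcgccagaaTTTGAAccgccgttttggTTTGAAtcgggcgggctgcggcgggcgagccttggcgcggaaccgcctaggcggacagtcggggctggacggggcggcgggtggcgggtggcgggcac
Top2a, chr11:98915016-98915265, minus strand: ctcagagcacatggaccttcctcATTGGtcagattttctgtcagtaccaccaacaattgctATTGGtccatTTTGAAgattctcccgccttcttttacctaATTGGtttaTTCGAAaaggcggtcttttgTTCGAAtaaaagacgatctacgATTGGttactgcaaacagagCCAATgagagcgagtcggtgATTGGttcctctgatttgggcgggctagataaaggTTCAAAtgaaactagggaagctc
Cenpf, chr1:189420284-189420533, minus strand: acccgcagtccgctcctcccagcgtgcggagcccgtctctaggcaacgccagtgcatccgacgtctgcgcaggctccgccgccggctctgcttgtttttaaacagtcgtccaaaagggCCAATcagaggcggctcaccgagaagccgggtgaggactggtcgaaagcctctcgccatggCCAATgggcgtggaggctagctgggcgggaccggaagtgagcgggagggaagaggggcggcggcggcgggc

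Top2a held 4 hexamers and 6 CCAAT pentamers before its start, the densest of these 6. Mki67 had 3 pentamers upstream of its 2 hexamers, in that order. For Kif4, Bub1 and Cenpf the hexamer came after the start, at bases 20, 15 and 3 counted from it, and is shown with 10 bases on either side.
Kif4, chrX:99669680-99669705, plus strand: ctgggatcaaTTTGAAacttggcggt
Bub1, chr2:127673750-127673775, minus strand: gcgcggggaaTTCGAAtcgccggcgg
Cenpf, chr1:189420266-189420291, minus strand: cggcgggcagTTTGAAtcgctcgtgc

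**Figure D2:**
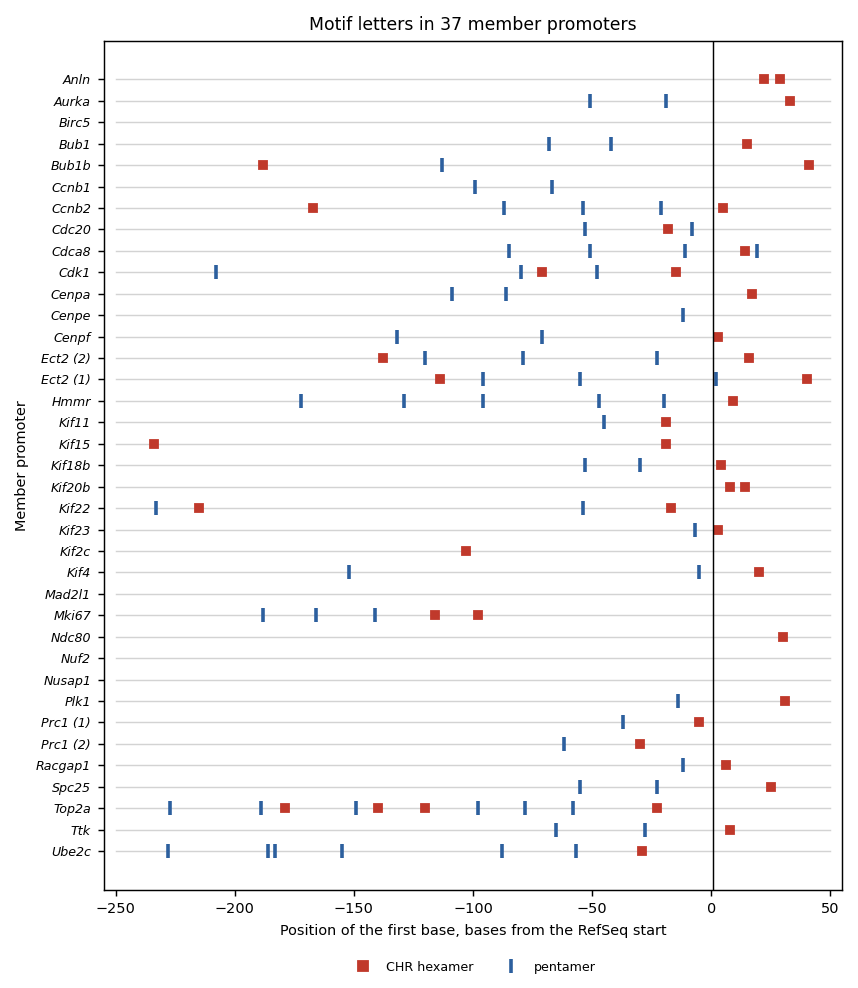
Position of the CHR hexamer (TTTGAA or TTCGAA, red squares) and of the CCAAT pentamer (blue bars), on either strand, in 37 RefSeq promoters of 35 members, in bases from the start (vertical line). A pentamer lies before the start in 28 of 37 rows, a hexamer lies wholly before it in 14, and Birc5, Mad2l1, Nuf2 and Nusap1 have empty rows.

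The kinases and cyclins that open mitosis were 5 of 5 higher DEG, with a median log2 fold change of 1.85. Ccnb1, cyclin B1, had the largest change of all 40 members. Its level was 6.03 to 19.3 CPM (median 10.4) in AVF and 1.65 to 3.26 CPM (median 2.11) in sham, a log2 fold change of 2.31 ± 0.27 (SE, n = 6 and 6, adjusted p = 0.00034). The lowest AVF sample, #07, was still above the highest sham sample, #18. Reads of Ccnb1 can be shared with its pseudogene copy Ccnb1-ps, to which 47.2 of the counts over all 12 libraries were assigned against 1561 for Ccnb1.

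Cdk1, the catalytic partner of the B cyclins, ran from 8.86 to 23.1 CPM (median 12.7) in AVF and from 1.74 to 3.47 CPM (median 3.21) in sham (log2 fold change 2.21 ± 0.25, adjusted p = 0.00031). No sham sample came near the AVF range. Ccnb2, Plk1 and Aurka, which encode cyclin B2 and 2 kinases of centrosome maturation and spindle assembly, had log2 fold changes of 1.62 to 1.85. Plk1 and Aurka were among the scarcer members, with sham medians of 1.19 and 1.16 CPM and SEs of 0.37 and 0.34.

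Mki67, which coats mitotic chromosomes and is the antigen of the Ki-67 stain, was the most abundant member in CPM. It ran from 79.2 to 173 CPM (median 112) in AVF and from 24.7 to 41.5 CPM (median 31.3) in sham, a log2 fold change of 1.81 ± 0.20 (adjusted p = 0.000272). Sample #05 was the lowest of the AVF group and sample #11 the highest, and the groups did not overlap. Top2a, the topoisomerase that untangles sister chromatids, ran from 53.1 to 85.3 CPM (median 68.2) in AVF and from 10.1 to 26.4 CPM (median 20.1) in sham, also with a log2 fold change of 1.81 ± 0.20 (adjusted p = 0.000274). Per kilobase of transcript, Top2a (12.9 CPM per kb in AVF), Prc1 (11.9) and Mki67 (11.2) stood highest in the AVF group. The order differed in sham, where Mad2l1 led at 5.34 CPM per kb.

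Of the checkpoint and APC/C genes, 5 of 6 were higher DEG and the median log2 fold change was 1.52. Bub1, a kinase that recruits checkpoint proteins to kinetochores, ran from 5.65 to 10.5 CPM (median 6.79) in AVF and from 1.02 to 2.14 CPM (median 1.80) in sham (log2 fold change 2.07 ± 0.22, adjusted p = 0.000221). The 5 AVF samples other than #11 kept to a narrow band, the highest of them, #09, at 7.50 CPM. Ttk, the MPS1 kinase that starts checkpoint signaling, ran from 3.21 to 5.76 CPM (median 3.99) in AVF and from 0.803 to 1.77 CPM (median 1.25) in sham (log2 fold change 1.72 ± 0.25, adjusted p = 0.00128). Mad2l1, which encodes the MAD2 protein that inhibits CDC20, was 13.4 to 26.1 CPM (median 18.3) in AVF and 8.34 to 10.6 CPM (median 9.85) in sham. Its log2 fold change of 0.93 ± 0.15 (adjusted p = 0.00275) lay under the 2-fold threshold, although every AVF sample was above every sham sample. It reached 1.02 when sample #07 was left out. Bub1b, Cdc20 and Ube2c, which encode BUBR1, the APC/C activator and an APC/C ubiquitin-conjugating enzyme, had log2 fold changes of 1.26 to 1.54.

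Kinetochore and centromere genes were 7 of 7 higher DEG with a median log2 fold change of 1.90, the highest of the 7 role groups. Cenpf, a large protein of the outer kinetochore, ran from 24.4 to 45.2 CPM (median 33.4) in AVF and from 4.65 to 11.0 CPM (median 7.28) in sham (log2 fold change 2.10 ± 0.23, adjusted p = 0.000281). Cenpe, the kinetochore kinesin that moves chromosomes to the metaphase plate, ran from 16.6 to 34.9 CPM (median 23.9) in AVF and from 4.06 to 8.51 CPM (median 5.92) in sham (log2 fold change 1.95 ± 0.23, adjusted p = 0.000346). Samples #04 and #05 were the lowest AVF samples for both genes, and neither gene overlapped between groups. The 4 genes of the NDC80 complex, which holds the microtubule end, were Ndc80, Nuf2, Spc24 and Spc25, with log2 fold changes of 1.69 to 1.98. Spc24 was among the scarcest members, with a sham median of 0.426 CPM and 7 counts in its lowest library. Cenpa, the histone H3 variant that marks centromeres, had the smallest change of this group at 1.11 ± 0.19 (adjusted p = 0.00333), and without sample #11 it fell to 0.95 ± 0.17, below 2-fold.

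The chromosomal passenger complex joins the Aurora B kinase to 3 targeting subunits, and 3 of its 4 genes were higher DEG. Birc5, survivin, ran from 4.62 to 10.2 CPM (median 7.01) in AVF and from 1.61 to 2.81 CPM (median 1.84) in sham (log2 fold change 1.85 ± 0.21, adjusted p = 0.00031). Cdca8, borealin, ran from 4.80 to 7.22 CPM (median 5.11) in AVF and from 0.720 to 2.14 CPM (median 1.37) in sham (log2 fold change 1.85 ± 0.24, adjusted p = 0.000687). Aurkb changed by 1.81 ± 0.28 (log2, adjusted p = 0.00176), so that these 3 subunits differed by less than 1 SE. Incenp, the scaffold that holds the complex together, stood apart from them with the smallest change of the 40 members. It was 8.46 to 21.5 CPM (median 13.04) in AVF and 5.55 to 8.46 CPM (median 7.47) in sham, with a log2 fold change of 0.87 ± 0.21 (adjusted p = 0.0201). Sample #05 (8.460 CPM) and sham sample #18 (8.456 CPM) all but touched for this gene.

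Spindle kinesins and assembly factors were 9 of 9 higher DEG, with a median log2 fold change of 1.66. Kif4, a chromokinesin that also shapes the anaphase midzone, ran from 5.93 to 13.3 CPM (median 8.85) in AVF and from 1.57 to 2.56 CPM (median 2.23) in sham (log2 fold change 2.12 ± 0.21, adjusted p = 0.000166). Hmmr, a hyaluronan receptor that also acts at spindle poles, ran from 11.0 to 26.9 CPM (median 12.97) in AVF and from 2.16 to 4.80 CPM (median 2.94) in sham (log2 fold change 2.30 ± 0.26, adjusted p = 0.00031). Both groups of samples were clear of each other for these genes, and samples #09 and #11 were the highest of the AVF group. The remaining 7 were the microtubule depolymerase Kif2c, the motors Kif11 (Eg5) and Kif15 that push the poles apart, Kif18b, Kif22, and the assembly factors Tpx2 and Nusap1. Their log2 fold changes ran from 1.41 for Kif22 to 1.95 for Tpx2. Kif18b had as few as 8 counts in a library, and its sham median was 0.669 CPM.

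The central spindle and cytokinesis genes were 7 of 7 higher DEG with a median log2 fold change of 1.63. Ect2, the exchange factor that activates RhoA at the cleavage furrow, had the lowest adjusted p value of the list (0.000145). It ran from 8.94 to 16.6 CPM (median 10.7) in AVF and from 2.79 to 4.57 CPM (median 3.21) in sham, a log2 fold change of 1.78 ± 0.18. Prc1, which bundles the microtubules of the midzone, ran from 26.9 to 47.6 CPM (median 34.2) in AVF and from 5.10 to 11.8 CPM (median 7.35) in sham (log2 fold change 2.13 ± 0.25, adjusted p = 0.00031). For Prc1 the AVF samples formed a lower set (#04, #05 and #07, up to 28.7 CPM) and a higher set (#06, #09 and #11, from 39.8 CPM). Kif20a, Kif20b and Kif23 are the midzone motors, Racgap1 is the partner of KIF23 in centralspindlin, and Anln (anillin) is a scaffold of the contractile ring. These 5 spanned log2 fold changes from 1.26 for Anln to 2.22 for Kif20a.

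**Figure D3:**
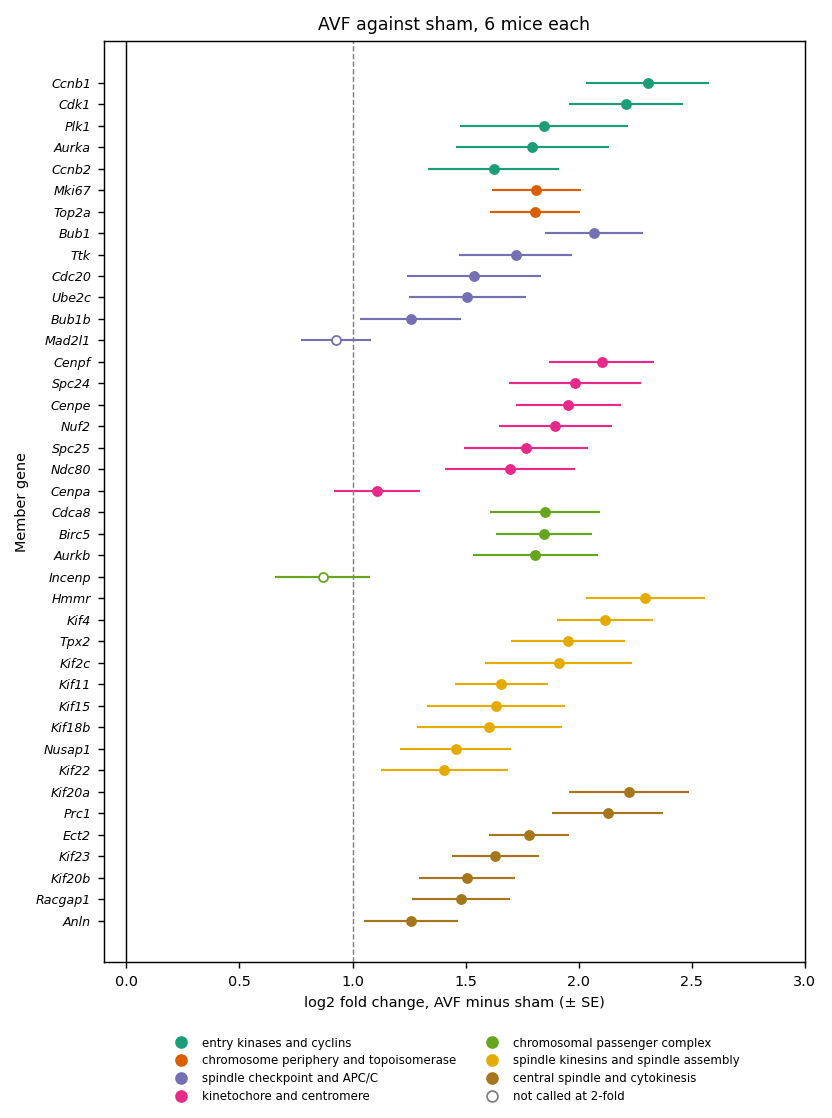
Log2 fold change of AVF over sham with its SE (bars) for each of the 40 members, coloured by role, with 6 mice in each group. The dashed line is 2-fold, and the 2 open points, Mad2l1 (0.93) and Incenp (0.87), are the members that were not DEG.

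The genes above lie, on GRCm39 with GENCODE M39 gene models, at chr13:100915153-100923116 (Ccnb1), chr10:69170976-69236595 (Cdk1), chr7:135291513-135318299 (Mki67) and chr11:98883769-98915062 (Top2a). The checkpoint genes are at chr2:127643036-127673806 (Bub1), chr9:83703392-83755037 (Ttk) and chr6:66512208-66524204 (Mad2l1). The kinetochore and passenger genes are at chr1:189372752-189420315 (Cenpf), chr3:134918298-134979372 (Cenpe), chr11:117740040-117746581 (Birc5), chr4:124812257-124833104 (Cdca8) and chr19:9846569-9876924 (Incenp). The spindle and cytokinesis genes are at chrX:99669343-99770946 (Kif4), chr11:40592167-40624288 (Hmmr), chr3:27151371-27208029 (Ect2) and chr7:79944168-79966011 (Prc1). All counts are over the whole gene.

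The AVF mice differed among themselves in how far the list rose. The mean of log2(CPM + 0.5) over the 40 members was 3.20 in sample #04, 3.22 in #05, 3.64 in #06, 3.26 in #07, 3.59 in #09 and 4.16 in #11. In sham it was 1.89 in sample #16, 2.06 in #17, 2.17 in #18, 2.25 in #19, 1.59 in #22 and 1.87 in #23. The SD over 6 mice was 0.37 in AVF and 0.24 in sham, and the lowest AVF mouse stood above the highest sham mouse. Summed over the list, the members made up 508 to 1008 CPM in AVF and 147 to 246 CPM in sham.

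Sample #11, a female AVF mouse, was the highest of all 12 samples for 39 of 40 members, and the exception, Spc24, was highest in sample #06. The same library had the highest summed macrophage markers (1197 CPM) and erythroid markers (19609 CPM) of the 12. It was also highest for smooth muscle markers (4928 CPM, beside 4848 CPM in sample #18) and B cell markers (12.3 CPM, beside 11.1 CPM in sample #07). The part of these cell types in its mitotic levels was not tested. The lowest AVF value was in sample #05 for 15 members, in #07 for 13, in #04 for 11 and in #06 for 1. On the sham side sample #22 was the lowest for 26 members and sample #19 the highest for 20. Samples #19 and #23 both held striated muscle markers, but different ones. In #19 the largest were Myh6 (408 CPM) and Myl7 (107 CPM), and in #23 Tnnt3 (283 CPM) and Acta1 (246 CPM). Sample #23 was the highest sham sample for 4 members and the lowest for 4. The median correlation between pairs of members was 0.83 over the 6 AVF mice and 0.49 over the 6 sham mice, given as a description since all members of a mouse share 1 library. The correlation was not computed without sample #11 or between genes outside the list.

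Samples #05 and #09, those with hepatocyte transcripts, were set beside the 4 other AVF samples. In sample #09, 40 of 40 members lay within the range of the 4 other AVF samples. In sample #05, 25 lay within that range, 15 below it and 0 above it. Both samples were above every sham sample for 40 of 40 members. For Mki67, sample #05 had 79.2 CPM and sample #09 had 102 CPM, beside 88.8 to 173 CPM in the other 4.

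**Figure D4:**
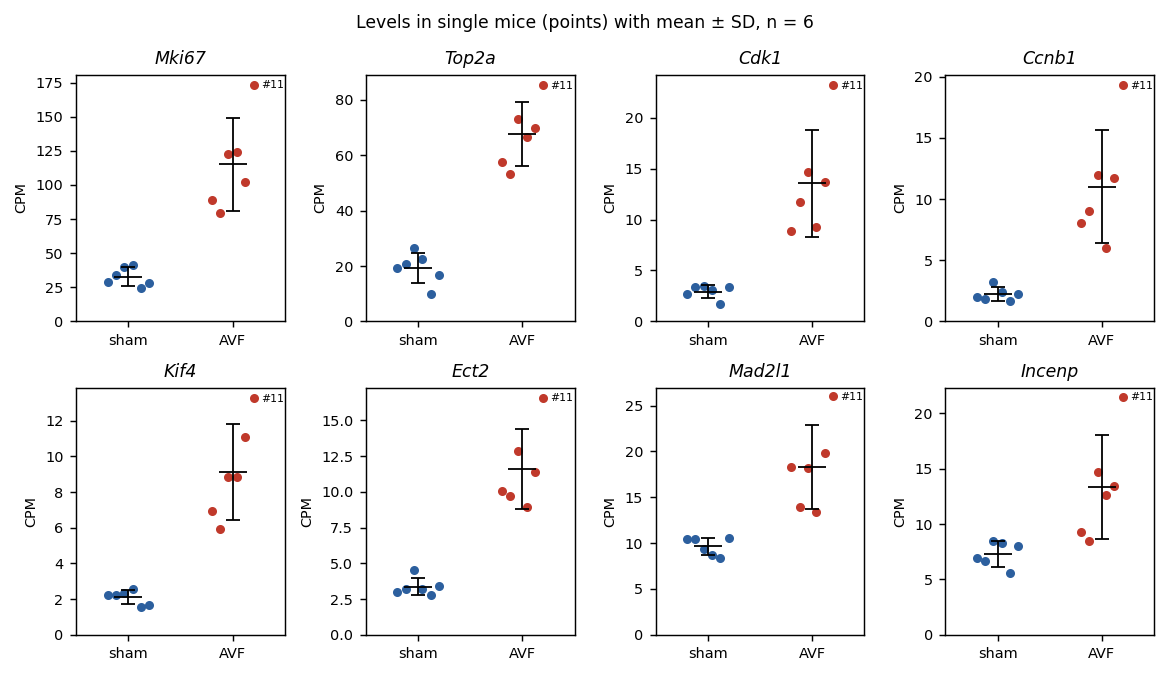
CPM of 8 members in each of the 6 sham (blue) and 6 AVF (red) mice, with the mean ± SD in black, each panel on its own axis from 0. Sample #11 is the highest point of every panel, and Mad2l1 and Incenp have the highest sham levels relative to AVF.

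Female and male mice were compared within each operation, since sex was balanced in the design. In AVF, 0 of 40 members differed between female and male mice at an adjusted p value under 0.05 and at least 1.5-fold, beside 0.0226% of the 22163 genes tested. At an unadjusted p under 0.05, 3 members did (Birc5, Kif4 and Kif20b) beside 4.53% of all genes, and DESeq2 also called 0 with 3 at an unadjusted p under 0.05. That count was 0 without sample #04 or #05, 1 without #11, 7 without #07 and 8 without #06. The share of all genes was not computed for DESeq2 or for the fits that leave out 1 library, here or in the next paragraph. The levels of the members were nonetheless mostly higher in females. Of their log2 fold changes of female over male AVF, 39 of 40 were positive, with a median of 0.38 (share of all genes not computed). That lean rested on sample #11, without which the median was 0.05 and 25 of 40 were positive, and the median was 0.59 without sample #07. For Kif4, the mean was 11.1 CPM in female AVF and 7.24 CPM in male AVF (log2 fold change 0.60 ± 0.25, adjusted p = 0.98).

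In sham, 0 of 40 members differed between the sexes, beside 0.0451% of all genes, with a median log2 fold change of -0.15 and 0 calls by DESeq2. At an unadjusted p under 0.05 there were 0 members beside 7.58% of all genes. Leaving out 1 library moved the median from -0.33 without sample #19, with 6 members at an unadjusted p under 0.05, to 0.04 without sample #22, with 1 (shares of all genes not computed). A test of whether the response to AVF differed between females and males, the interaction of operation and sex, called 0 of 40 members and 0% of all genes. At an unadjusted p under 0.05 there were 4 members, Birc5, Kif4, Kif20b and Anln, beside 4.82% of all genes, and 5 by DESeq2, which also called 0. The median interaction was 0.52 (log2, female effect minus male effect). It was 0.16 without sample #11, with 1 member at an unadjusted p under 0.05, 0.33 without #22, with 0, and 0.77 without #19, with 12.

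Other genes of cell division, in lists that do not contain the members, moved less uniformly. Of 154 genes in 10 such lists, 153 were tested, 42 were higher DEG (38 without samples #05 and #09) and 0 were lower DEG, with a median log2 fold change of 0.23. Among all genes tested, 3.37% were higher DEG. The log2 fold change was positive for 123 of the 153. With no fold threshold, 55 were higher at an adjusted p value under 0.05, against 8.63% of all genes, and 2 were lower (share of all genes not computed). Higher DEG were most frequent in the other mitotic kinesins and spindle factors, with 9 of 15 and a median of 1.66. In that list Fam83d, which recruits a kinase to the spindle, rose from 0.636 ± 0.15 to 3.30 ± 0.76 CPM (mean ± SD, n = 6 each, log2 fold change 2.37 ± 0.22, adjusted p = 0.000119). Ckap2, a microtubule-associated protein, rose from 2.93 ± 0.88 to 15.1 ± 5.83 CPM (2.37 ± 0.27, adjusted p = 0.000302).

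The regulators of the G2/M switch had 7 of 15 higher DEG, and 5 without samples #05 and #09. Ccna2, cyclin A2, had 33.2 ± 10.4 CPM in AVF and 7.96 ± 2.04 CPM in sham (log2 fold change 2.06 ± 0.22, adjusted p = 0.000272), and the centrosomal kinase Nek2 changed by 1.84 ± 0.26 (log2, adjusted p = 0.00115). Kinetochore genes outside the list were 8 of 17 higher DEG for the outer kinetochore, 6 without samples #05 and #09, among them the scaffold Knl1 (1.72 ± 0.21, adjusted p = 0.00036) and Kntc1 (1.63 ± 0.18, adjusted p = 0.000281), which encodes ROD. For the inner kinetochore and the loading of CENP-A, 7 of 18 tested genes were higher DEG, 5 without samples #05 and #09, among them Cenpk at 1.09 ± 0.16 (adjusted p = 0.0012).

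Condensins, which compact mitotic chromosomes, had 2 of 8 higher DEG, 3 without samples #05 and #09, and 6 of 8 had an adjusted p value under 0.05. Ncapg, of condensin I, changed by 1.95 ± 0.21 (log2, adjusted p = 0.000272), while Ncapg2, of condensin II, had 0.78 ± 0.10 (adjusted p = 0.000617) and was not a DEG. Cohesin and the genes of sister separation had 4 of 13 higher DEG, and the shugoshins Sgo1 (1.65 ± 0.25, adjusted p = 0.00166) and Sgo2a (1.40 ± 0.20, adjusted p = 0.00125), protectors of centromeric cohesion, were those with the lowest adjusted p values. In the contractile ring and abscission list 3 of 21 were higher DEG, 4 without samples #05 and #09, with Arhgap11a, a RhoA regulator, at 1.48 ± 0.17 (adjusted p = 0.000308) and Cep55, which organizes the midbody, at 1.96 ± 0.27 (adjusted p = 0.00085).

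Core machines that serve mitosis gave other counts. Among the APC/C subunits and regulators 0 of 17 were DEG, and 0 had an adjusted p value under 0.05, with a median log2 fold change of 0.08. The lowest adjusted p values there were those of Cdc16 (0.24 ± 0.08, adjusted p = 0.0719) and the APC/C inhibitor Fbxo5 (0.64 ± 0.23, adjusted p = 0.0832). Augmin and gamma-tubulin genes, which nucleate microtubules, were 0 of 17 DEG with a median of 0.07, from -0.37 ± 0.15 for Tubg1 (adjusted p = 0.117) to 0.41 ± 0.17 for Haus8 (adjusted p = 0.121).

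Of the regulators of G2/M transcription, 2 of 12 were higher DEG. Foxm1, a factor that acts on G2/M promoters, had 11.0 ± 2.79 CPM in AVF and 3.80 ± 1.14 CPM in sham (log2 fold change 1.53 ± 0.23, adjusted p = 0.00143). Mybl2, B-MYB, had 1.99 ± 0.29 CPM in AVF and 0.642 ± 0.18 CPM in sham (1.62 ± 0.23, adjusted p = 0.00117). The replication helicase MCM genes and Pcna, expressed from late G1 and S phase, had 0 of 7 DEG with all 12 samples, although 5 of 7 had an adjusted p value under 0.05 with higher levels in AVF. Their median log2 fold change was 0.50, with Mcm2 at 0.69 ± 0.15 (adjusted p = 0.0118) and Mcm5 at 0.94 ± 0.22 (adjusted p = 0.0185). Without samples #05 and #09, 1 of 7 was a higher DEG, Mcm5 at 1.07 ± 0.23 (adjusted p = 0.0179).

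**Figure D5:**
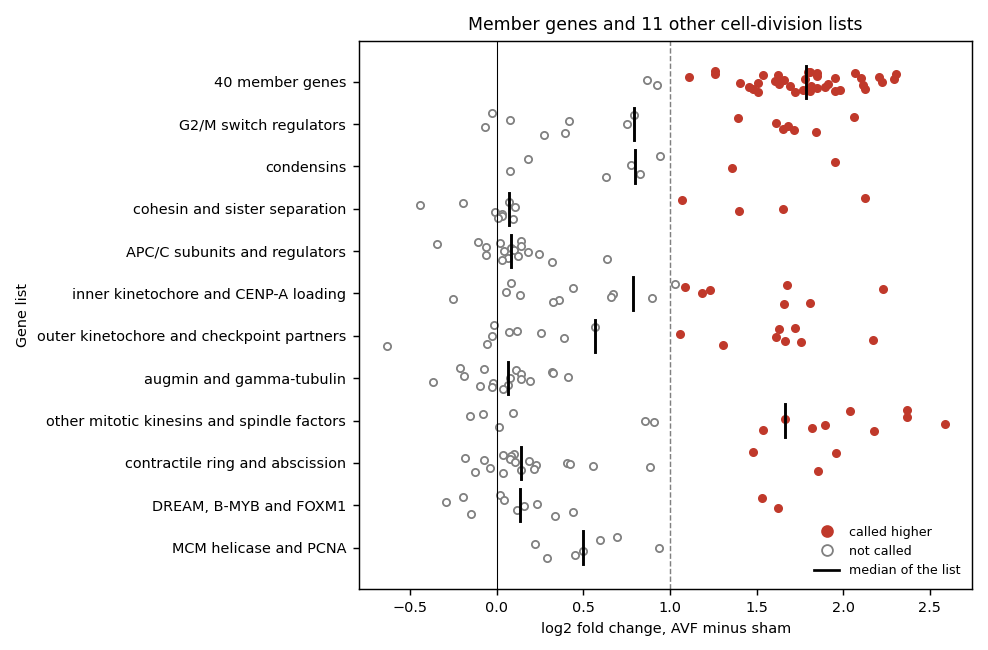
Log2 fold change of AVF over sham for each tested gene of the 40 members and of 11 other cell-division lists, with DEG in red, other genes open, and the median of each list as a black bar. The dashed line is 2-fold: the members lie to its right except 2, with a median of 1.79, while APC/C and augmin genes centre on 0.08 and 0.07.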

How the data were processed

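Inferior vena cava RNA of 12 mice, 1 library per mouse, was sequenced by the authors from stranded poly-A libraries. Per the labels, reads were trimmed with Trimmomatic 0.39, aligned to GRCm39 with STAR 2.7.7a and quantified with RSEM 1.3.3. The deposited values are expected counts per Ensembl gene, not normalized. Multi-mapped reads are shared out by RSEM, so a gene with a near-identical copy is less certain.

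Counts were rounded. Names came from GENCODE M39. AVF and sham were compared with edgeR 4.0.16 (R 4.3.3), using TMM factors and the quasi-likelihood test with Benjamini-Hochberg adjustment, on 15912 genes above 1 CPM in at least 2 of 12 samples. Sexes and the interaction were tested in 1 fit of 4 groups on 22163 genes with over 12 counts in all. DESeq2 1.42.0 was an alternative. SE is the absolute log2 fold change over the square root of F. P-values come from setting the difference between groups against the spread between mice. Scripts were tested on simulated data.

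Replicate libraries differed by far more than counting noise (chi-square per degree of freedom 37.1 to 621). The members and lists were chosen with earlier results of these data known. Values are given for Mki67, Top2a, Cdk1, for 2 members per role and 2 genes per other list with the lowest adjusted p, for members not called, and for the extremes. Of these, 1 gene is not reported here. Promoters are RefSeq's. Groups follow the labels. The samples set apart by the study were chosen there on expression and were not tested as a group.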

Additional observations from a re-analysis of the deposited data

Results flagged for a closer look

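In 80 groups searched (40 members in AVF and in sham, 6 mice each), 5 held a mouse far from the others by Dixon's test, which chance alone gives in about 1 in 20 groups. Sample #11 was far above the other AVF mice for Cdca8 (7.22 CPM), Kif11 (33.2 CPM) and Nusap1 (30.7 CPM). Among sham mice, sample #22 was far below the others for Bub1b (2.46 CPM) and sample #17 far above them for Birc5 (2.81 CPM).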

How the results depend on the processing

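The number of members higher in AVF was 38 under each of the other tests, normalizations, filters and covariates, and 40 with no fold threshold. It ranged from 37 to 39 when single libraries were left out: Cenpa was lost without sample #11 and Mad2l1 gained without sample #07. Of the other mitosis genes, 38 to 42 were higher under these settings and 55 with no fold threshold. No member was lower under any of the 25 alternatives. No pairing by replicate number was assumed, and these values cannot decide whether there was one. Correlations of same-numbered AVF and sham mice, as deviations from the means of the 4 groups, ran from -0.21 to 0.26. As deviations from the mean of each operation, 3 of 6 AVF mice correlated best with the sham mouse of their own number. With the replicate as a block, 38 members and 502 of all genes were higher. The count over all genes, 536, was 349 without sample #05, 351 without sample #22, 360 without both #05 and #09, and 1373 with no fold threshold. The share of member promoters with a hexamer moved from 83.8% to 37.8% when bases after the start were left out. Sex calls stayed at 0 under every alternative run. Precision is limited by the 6 to 8 counts of Plk1, Spc24 and Kif18b in their lowest libraries.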
